A study of Homo sapiens with 13 samples.

Results

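In MOLM-13 cells, 1622 PTBP1 peaks lay at the start of a protein-coding gene with no RUNX1 peak called on top of them, and these PTBP1-only coding start sites are described here. A region was included when its peak in the deposited PTBP1 list shared 0 bases with every peak of the RUNX1 list and came within 1 kb of the 5′ end of a protein-coding gene in GENCODE version 44. They made up 1622 of the 4760 PTBP1-only peaks, of 9370 PTBP1 peaks and of 17058 peaks in both lists together. The cells were MOLM-13, a long-established line grown from a human acute myeloid leukemia, and the sample labels give no treatment or engineered change. Chromatin was profiled by CUT&Tag, where antibody-bound transposase tags DNA close to the target, and by CUT&RUN, where antibody-bound nuclease releases it. The 13 libraries comprised 2 each for PTBP1 and for RUNX1 in both assays, 1 IgG control in CUT&Tag, and 2 IgG and 2 H3K27me3 libraries in CUT&RUN. Every value below comes from 1 PTBP1 list and 1 RUNX1 list on the hg38 build. Both lists were treated as CUT&Tag results, the assay for which the methods of the study give peak calling. The replicates behind each list are not named in the sources used here and per-library signal was not analysed here, which leaves every value without a replicate spread. Ranges printed with percentages are 95% Wilson intervals, which cover counting error only. Other percentages are given without an interval.

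PTBP1 is best known as an RNA-binding protein that recognises pyrimidine-rich stretches and represses or activates splicing of nearby exons, whereas RUNX1 binds DNA directly through its Runt domain together with CBFβ. Promoters of coding genes are often CpG islands, where CpG dinucleotides escaped methylation, and many hold short DNA elements such as the GC box bound by SP family factors or the CCAAT box bound by NF-Y. Many promoters are divergent, with a second gene starting close by on the opposite strand. The study asked whether PTBP1 sits with RUNX1 on chromatin. The start sites treated here are those at which PTBP1 was called and RUNX1 was not, and RUNX1 signal too weak to be called cannot be told from none.

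The sequences under a selection of the PTBP1-only summits named below show different promoter motifs. They were not taken in order of strength, and SEPTIN9 and HPCAL4 were not among the 20 sites of highest fold enrichment. Each line gives the summit base with 50 bases on either side, read on the plus strand of hg38. Matches to the motifs defined further on are in capitals, except pyrimidine runs and matches that overlap a marked one. The first set holds summits with CCAAT boxes, GC boxes, a cAMP response element, an NRF1 motif or an ETS motif.
SLC25A42 (chr19:19063779-19063879, gene on the plus strand): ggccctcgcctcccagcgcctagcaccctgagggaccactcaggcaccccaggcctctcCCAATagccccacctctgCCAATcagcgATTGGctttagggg
CHAF1A (chr19:4402360-4402460, gene on the plus strand): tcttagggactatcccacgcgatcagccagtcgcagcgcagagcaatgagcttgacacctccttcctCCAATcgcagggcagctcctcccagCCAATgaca
ENGASE (chr17:79074668-79074768, gene on the plus strand): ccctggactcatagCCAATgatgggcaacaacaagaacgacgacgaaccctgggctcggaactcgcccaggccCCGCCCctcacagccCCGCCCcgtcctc
MGRN1 (chr16:4616320-4616420, gene on the plus strand): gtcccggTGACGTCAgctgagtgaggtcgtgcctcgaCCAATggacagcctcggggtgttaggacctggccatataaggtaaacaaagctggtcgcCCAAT
ATF6B (chr6:32128365-32128465, gene on the minus strand): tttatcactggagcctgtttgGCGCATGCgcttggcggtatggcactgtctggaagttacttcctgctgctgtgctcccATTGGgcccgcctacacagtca
JOSD2 (chr19:50511347-50511447, gene on the minus strand): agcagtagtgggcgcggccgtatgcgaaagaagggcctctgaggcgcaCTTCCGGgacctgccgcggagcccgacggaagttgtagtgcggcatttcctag
ENSG00000141979/MED26 (chr19:16628264-16628364, gene on the minus strand): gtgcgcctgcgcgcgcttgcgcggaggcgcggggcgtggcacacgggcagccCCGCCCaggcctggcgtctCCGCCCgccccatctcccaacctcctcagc

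In the second set, SEPTIN9 and HPCAL4, the capitals include a RUNX motif (TGTGGT or its complement ACCACA) although no RUNX1 peak was called there.
SEPTIN9 (chr17:77281296-77281396, gene on the plus strand): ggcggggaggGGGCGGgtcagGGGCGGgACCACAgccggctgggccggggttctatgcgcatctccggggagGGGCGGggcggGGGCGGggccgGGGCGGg
HPCAL4 (chr1:39690963-39691063, gene on the minus strand): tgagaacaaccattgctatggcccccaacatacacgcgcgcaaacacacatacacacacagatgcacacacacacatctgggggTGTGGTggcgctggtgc

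The SGTA window is shown as a strong PTBP1-only summit that held none of the motifs searched. The windows of BRSK2, the strongest site, RPL23A and POU2F1 also held none and are not printed.
SGTA (chr19:2783403-2783503, gene on the minus strand): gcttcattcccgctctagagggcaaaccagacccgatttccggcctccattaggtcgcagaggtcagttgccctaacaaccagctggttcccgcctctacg

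The strongest PTBP1-only start sites belonged to genes of many different functions. Fold enrichment, the pileup of fragments at the summit over the background with 1 added to each, was highest at BRSK2, which encodes a serine/threonine kinase. It reached 46.5 there, with 79 fragments at the summit over a background of 0.720. The divergent pair NOXO1 and GFER, an NADPH oxidase organiser and a mitochondrial sulfhydryl oxidase, followed at 45.9. SLC25A42, a mitochondrial carrier for coenzyme A, stood at 44.2. The peak reaching the starts of GALNS, a lysosomal sulfatase, and TRAPPC2L, a vesicle tethering subunit, stood at 40.7. These genes overlap at their 5′ ends, and the summit lay 867 bases inside TRAPPC2L. Mitochondrial complex I was represented by its assembly factor FOXRED1 at 38.9, in a promoter shared with the signal recognition particle receptor gene SRPRA, and by its subunit NDUFA6 at 30.2.

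Several of the strongest sites lay at genes of the transcription and chromatin machinery. CHAF1A, a chromatin assembly factor 1 subunit, had a fold enrichment of 37.2, POLR2E, a subunit common to the nuclear RNA polymerases, 34.9, and MTA2, a subunit of the NuRD deacetylase complex, 29.6. The Integrator gene INTS9 shared a start region at 33.7 with HMBOX1, and MED26, a Mediator subunit, shared one at 33.1 with ENSG00000141979. POU2F1, which encodes the octamer-binding factor OCT1, had 29.6, and the endoplasmic reticulum stress factor gene ATF6B had 38.4. The ribosomal protein genes RPL27 and RPL23A had 36.0 and 33.1. Of the remaining strongest sites, CDH15, a cadherin of muscle, had 36.0 and the co-chaperone gene SGTA 35.5. MGRN1, a ubiquitin ligase gene, had 33.1, the deubiquitinase gene JOSD2 32.6 and the cytosolic glycosidase gene ENGASE 30.2. Among these 20 sites the nearest RUNX1 peak was 319 bases away at ATF6B and 446860 bases away at INTS9.

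PTBP1-only peaks at coding start sites were weaker and narrower than the 2868 PTBP1 peaks at coding start sites that overlapped a RUNX1 peak, called shared peaks from here on. Because the regions were chosen by which peaks passed the authors' q-value threshold of 1e-07, peak strength, width and distance to RUNX1 are given as descriptions without a test. The median fold enrichment was 11.05 (quartiles 9.30 and 14.5) against 18.6 (12.8 and 29.6) for shared peaks, and the highest values were 46.5 and 227. The median summit held 19 fragments against 33, with a lowest summit of 11 in both classes. The median width was 527 bases against 897.5.

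The PTBP1-only share of all PTBP1 peaks at coding start sites fell step by step with peak strength. It was 64.9% (61.8 to 67.8) of 948 peaks with a fold enrichment below 10 and 49.3% (46.6 to 52.1) of 1289 peaks from 10 to below 15. It was 31.0% (27.9 to 34.3) of 816 peaks in the next class, 14.2% (11.8 to 17.0) of 704 peaks from 20 to below 30 and 4.03% (2.56 to 6.28) of 447 peaks from 30 to below 50. None of the 286 peaks at 50 or more was PTBP1-only, a share of 0 with an upper interval bound of 1.33%. RUNX1-only peaks at coding start sites, of which there were 716, had a median fold enrichment of 10.5 and a median of 14 fragments at the summit. RUNX1 peaks could be called from 8 fragments, against 11 in the PTBP1 classes, so the detection limits of the 2 lists differed. The most common background also differed, at 0.33 fragments in the RUNX1 list and 0.72 in the PTBP1 list. A lower fragment count at a called RUNX1 peak therefore does not mean that RUNX1 was easier to detect.

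**Figure D1:**
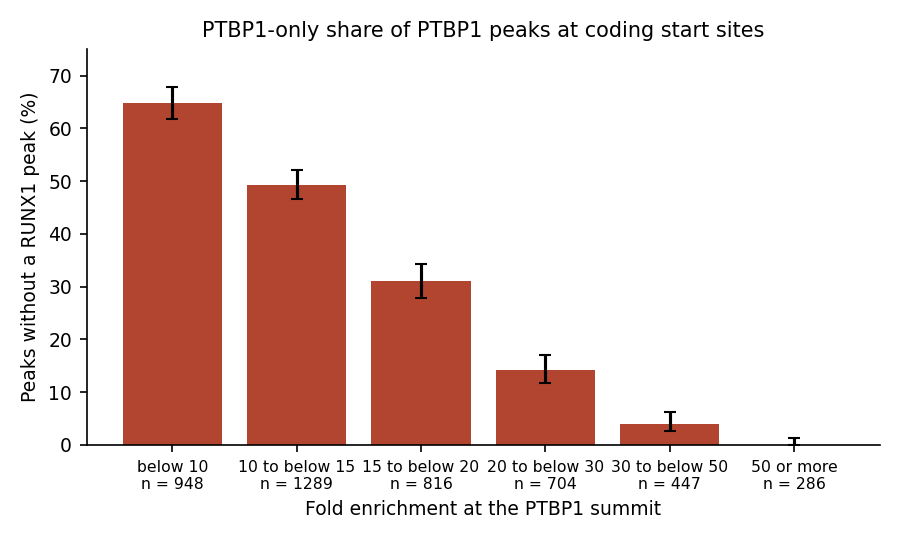
Percentage of PTBP1 peaks at coding start sites without a RUNX1 peak (y axis) in 6 classes of fold enrichment at the PTBP1 summit (x axis), with 95% Wilson intervals as error bars. The share falls from 64.9% of the weakest peaks to 0 of the 286 strongest.

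Most PTBP1-only start sites lay at least 10 kb from any RUNX1 peak. No reference distance, such as that of other start sites, was computed. The median distance to the nearest RUNX1 peak was 37160 bases (quartiles 12410 and 111278). The distance was below 1 kb at 83 sites (5.12%), from 1 to below 10 kb at 275 (17.0%), from 10 to below 100 kb at 817 (50.4%) and larger at 447 (27.6%). Just inside the overlap rule stood CAMTA2, SNRPA1 and C11orf54, whose PTBP1 peaks ended 7, 52 and 58 bases from a RUNX1 peak, at fold enrichments of 9.88, 8.72 and 8.72. Just outside stood TBCC, RHOT1 and GLIS1, with overlaps of 7, 8 and 9 bases and fold enrichments of 8.72, 8.14 and 11.6. Just inside the distance rule stood C12orf57, a second PTBP1-only peak of POLR2E and ENSG00000204003, whose peak edges lay 999, 993 and 990 bases from the start site. CUTA, RIC8A and BRF1 fell outside it at 1001, 1006 and 1007 bases.

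Summits were concentrated around the annotated start of the gene. The median absolute distance from the summit to the assigned start site was 152 bases at PTBP1-only sites and 174 at shared sites. The summit lay within 250 bases at 67.0% (64.6 to 69.2) of PTBP1-only sites and 63.9% (62.1 to 65.6) of shared sites, while the start site itself lay inside 65.8% (63.5 to 68.1) and 80.2% (78.7 to 81.6) of the peaks. Summits lay more than 1 kb away at 121 PTBP1-only sites (7.46%, 6.28 to 8.84) and at 5.86% (5.06 to 6.78) of shared sites. Relative to the canonical transcript of the gene, 67.1% (64.8 to 69.3) of PTBP1-only summits were upstream. A further 13.6% (11.98 to 15.3) were in the 5′ UTR, 12.2% (10.7 to 13.9) in intron 1 and 5.36% (4.37 to 6.57) in coding sequence.

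The side of the start site on which the summit lay did not separate the classes clearly. It was downstream at 787 of 1622 PTBP1-only sites (48.5%, 46.1 to 51.0) and at 1424 of 2868 shared sites (49.7%, 47.8 to 51.5), which put the PTBP1-only share -1.13 points from the shared one (odds ratio 0.956 and adjusted p = 0.475 by two-sided Fisher's exact test). With the start sites of canonical transcripts in place of gene 5′ ends the direction turned, with 38.3% against 30.6% downstream (Fisher's exact test adjusted p = 1.05e-07). With shared peaks limited to those whose PTBP1 and RUNX1 summits were at most 200 bases apart, the difference was 0.208 points. Among PTBP1-only sites the position varied with strength. The summit was downstream at 33.3% (29.0 to 38.0) of the 420 sites at or above the upper quartile of fold enrichment and at 56.1% (51.6 to 60.4) of the 487 at or below the lower quartile. At shared sites cut at those same fold enrichments the shares were 46.3% (44.1 to 48.5) and 58.5% (52.3 to 64.4). These shares by strength were not tested.

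**Figure D2:**
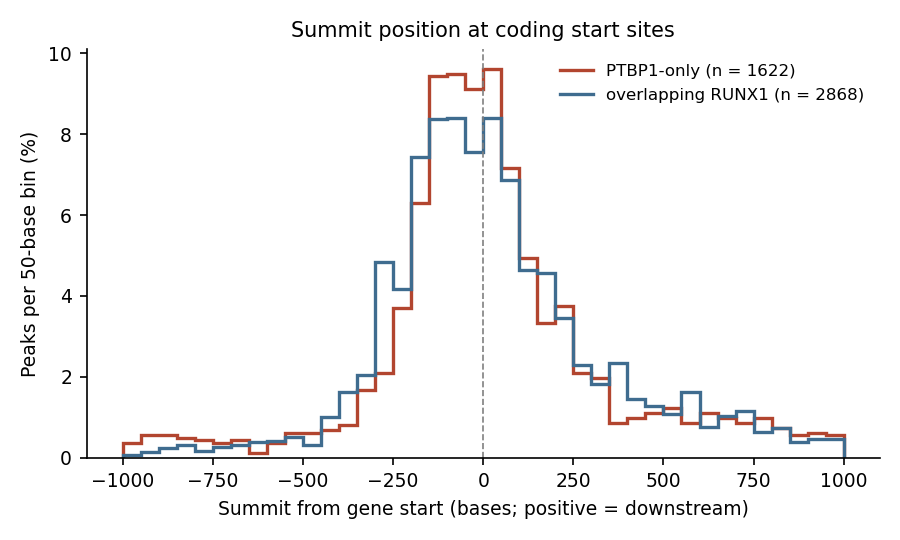
Percentage of peaks (y axis) by distance of the PTBP1 summit from the 5′ end of the gene in 50-base bins (x axis, positive values downstream), for PTBP1-only peaks and for peaks overlapping a RUNX1 peak. Both profiles crowd around the start site, with 9.62% of PTBP1-only and 8.40% of shared summits in the first 50 bases downstream.

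Sequence and gene arrangement, which the selection did not use, differed between the classes. PTBP1-only start sites were less often CpG-rich, defined as a 500-base window with at least 55% GC and an observed/expected CpG ratio of at least 0.65. Such windows surrounded 1188 of 1622 PTBP1-only summits (73.2%, 71.0 to 75.3) and 2410 of 2868 shared summits (84.0%, 82.6 to 85.3). The difference of -10.8 points passed the exact test (odds ratio 0.520, adjusted p = 5.24e-17). Over all 20033 coding genes, 53.3% of the same windows placed just upstream of the start site were CpG-rich, so both classes exceeded the genome-wide level. The median GC content of the windows was similar, at 66.1% and 67.4%, and the median observed/expected CpG ratio was 0.808 and 0.835. When the start site had to lie inside the peak, the difference was -4.14 points (exact test, adjusted p = 0.00481).

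Divergent start sites were also less frequent. Another gene began on the opposite strand within 1 kb at 494 PTBP1-only sites (30.5%, 28.3 to 32.7) and at 1152 shared sites (40.2%, 38.4 to 42.0). The count did not ask whether the genes of a pair overlapped. The difference was -9.71 points (odds ratio 0.652, adjusted p = 1.78e-10 in the exact test), and the share over all coding genes was 26.6%. The nearest opposite gene was coding at 13.7% (12.2 to 15.5) of PTBP1-only and 15.8% (14.5 to 17.1) of shared sites, and a long noncoding RNA at 15.1% (13.4 to 16.9) and 22.6% (21.1 to 24.2). The coding pairs included NOXO1 with GFER, GALNS with the overlapping TRAPPC2L, and FOXRED1 with SRPRA, and the noncoding partners included NDUFA6-DT and POU2F1-DT. CpG-rich windows were more common at divergent PTBP1-only sites (82.6%, 79.0 to 85.7) than at the others (69.1%, 66.4 to 71.8), as a description without a test.

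**Figure D3:**
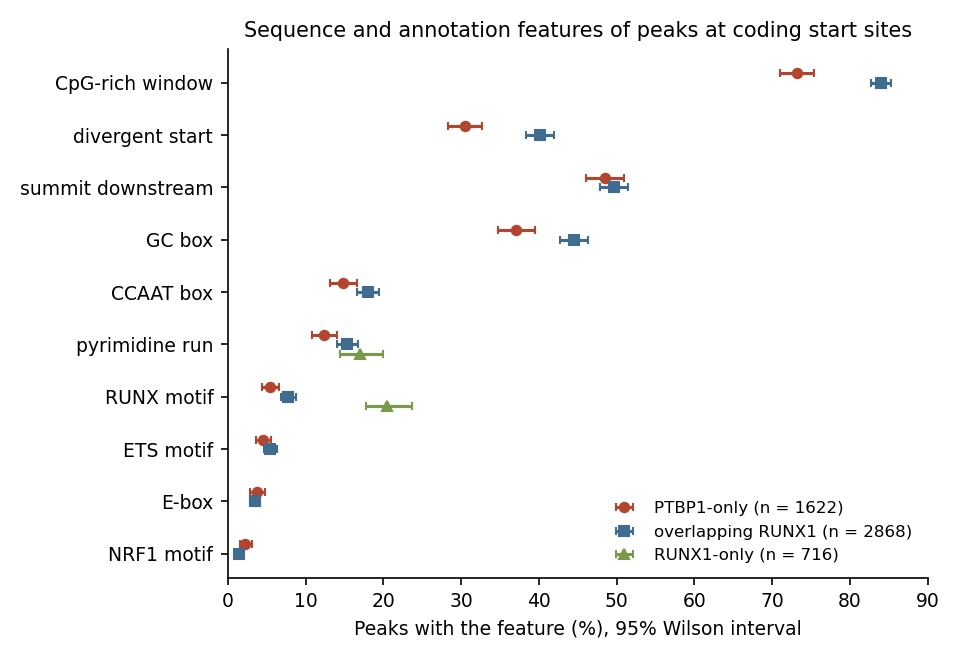
Percentage of peaks with each feature (x axis) for PTBP1-only peaks, peaks overlapping RUNX1 and, for 2 of the features, RUNX1-only peaks, all at coding start sites, with 95% Wilson intervals. The largest gap from shared peaks is at CpG-rich windows, 73.2% against 84.0%, and the RUNX motif reaches 20.5% at RUNX1-only summits.

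RUNX motifs were uncommon at PTBP1-only summits. The motif was sought as TGTGGT or TGCGGT on either strand within 50 bases of the summit. Windows were centred on the RUNX1 summit for RUNX1-only peaks and on the PTBP1 summit for the other classes, here and for pyrimidine runs below. It was found at 88 PTBP1-only summits (5.43%, 4.42 to 6.64), at 222 shared summits (7.74%, 6.82 to 8.78) and at 147 of 716 RUNX1-only summits (20.5%, 17.7 to 23.6). The difference from RUNX1-only was -15.1 points (odds ratio 0.222, adjusted p = 2.67e-26 in the exact test). Because RUNX1 signal placed the RUNX1-only windows, this test does not separate the class of site from the choice of summit. The difference from shared was -2.32 points (odds ratio 0.684, adjusted p = 0.00538 in the exact test) and fell short of the threshold among windows of 60 to 70% GC (-1.69 points, adjusted p = 0.292). Of windows of the same length centred 100 bases upstream of all coding start sites, 6.70% held the motif. The strongest PTBP1-only sites with a RUNX motif were RPL27 at a fold enrichment of 36.0, TRIM45 at 21.5, SEPTIN9 at 20.3, RHBDL1 at 19.2 and HPCAL4 at 18.02. Their summits lay 66, 582, 777, 2416 and 472 bases downstream of the 5′ end of the gene, in the same order. Relative to the canonical transcript, the summits of RPL27, TRIM45 and SEPTIN9 were upstream. That of RHBDL1 was in the 3′ UTR and that of HPCAL4 in intron 1. The nearest RUNX1 peaks of these sites were between 19743 and 107444 bases away. The motif was present in 9.91% (7.44 to 13.1) of PTBP1-only windows that were not CpG-rich and in 3.79% (2.84 to 5.03) of those that were.

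Pyrimidine runs, the kind of sequence that PTBP1 binds in RNA, were no more frequent at PTBP1-only summits than at the other classes. A run of at least 12 C or T on either strand lay within 50 bases of 200 PTBP1-only summits (12.3%, 10.8 to 14.0) and 441 shared summits (15.4%, 14.1 to 16.7), a gap of -3.05 points (odds ratio 0.774, adjusted p = 0.00641 in the exact test). RUNX1-only summits had such a run in 17.0% of cases (14.5 to 19.97), a difference of -4.71 points (odds ratio 0.685, exact test adjusted p = 0.00273), and the promoter windows of all coding genes in 18.8%. Neither difference passed the threshold among windows of 60 to 70% GC, with exact-test adjusted p = 0.123 and 0.0547. The difference from shared summits also missed it within the interquartile range of fold enrichment of the PTBP1-only sites (exact test, adjusted p = 0.201). Pyrimidine runs were found at similar shares of upstream (12.7%, 10.6 to 15.1) and downstream summits (11.9%, 9.86 to 14.4).

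Of 13 other motifs tested against shared summits, 2 differed, both lower at PTBP1-only sites. The GC box (GGGCGG) was present at 37.1% (34.8 to 39.5) of PTBP1-only and 44.5% (42.7 to 46.4) of shared summits (odds ratio 0.735, adjusted p = 1.86e-05 in the exact test), against 31.2% of all coding promoter windows. The CCAAT box (CCAAT) was present at 14.8% (13.2 to 16.6) and 17.99% (16.6 to 19.4) of summits (odds ratio 0.792, exact test adjusted p = 0.0398), against 19.3% of promoter windows. Within the interquartile range of fold enrichment neither passed the exact test, with adjusted p = 0.562 for the GC box and 0.888 for the CCAAT box. They also missed the threshold where the start site had to lie inside the peak (exact test, adjusted p = 0.134 and 0.995).

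The remaining 11 motifs did not pass the test. The ETS motif (CCGGAAG), bound by factors such as GABPA, was at 4.501% (3.59 to 5.62) of PTBP1-only and 5.44% (4.67 to 6.33) of shared summits. The NRF1 motif (GCATGCGC), found in promoters of nuclear genes for mitochondrial proteins, was at 2.22% (1.61 to 3.06) and 1.43% (1.06 to 1.93), with exact-test adjusted p = 0.241. The E-box (CACGTG), bound by MYC and USF proteins, was at 3.70% (2.88 to 4.73) and 3.45% (2.84 to 4.18). The PU.1 motif (GAGGAAGT), YY1 motif (AAGATGGCG), cAMP response element (TGACGTCA), ZBTB33 motif (CTCGCGAG), AP-1 motif (TGANTCA), C/EBP motif (TTGCNNAA), GATA motif (AGATAA) and TATA box (TATAAA) were each at 0.617 to 1.48% of PTBP1-only summits. The myeloid factor motifs among these were thus rare in both classes, with C/EBP at 1.48% and 1.46% and PU.1 at 0.617% and 0.732%.

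Motif content varied within the PTBP1-only sites. CCAAT boxes were present at 23.1% (19.3 to 27.4) of the sites at or above the upper quartile of fold enrichment and at 9.65% (7.34 to 12.6) of those at or below the lower quartile. Shared sites cut at the same values had 20.8% (19.0 to 22.6) and 8.47% (5.60 to 12.6). They were also at 19.9% (17.3 to 22.7) of upstream and 9.40% (7.56 to 11.6) of downstream summits, and the 287 matches lay at a median of 64 bases upstream of the start site. SLC25A42 and CHAF1A, printed above, each held more than 1 CCAAT box in the summit window. E-boxes were likewise at 5.39% (4.05 to 7.14) of upstream and 1.91% (1.16 to 3.12) of downstream summits. GC boxes were at 43.0% (40.2 to 45.8) of CpG-rich and 21.0% (17.4 to 25.04) of other windows, and ETS motifs at 5.64% (4.465 to 7.10) and 1.38% (0.635 to 2.98). YY1 matches, of which there were 15, had a median position 55 bases downstream of the start site. These are descriptions without a test.

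Sites near a RUNX1 peak had a different make-up from sites far from one. Of the 358 PTBP1-only sites within 10 kb of a RUNX1 peak, 50.6% (45.4 to 55.7) were CpG-rich and 23.2% (19.1 to 27.8) divergent. Of the 447 sites at least 100 kb away, 84.6% (80.9 to 87.6) were CpG-rich and 39.1% (34.7 to 43.7) divergent. Their median fold enrichments were close, at 10.5 and 11.05, and RUNX motifs were at 5.59% (3.65 to 8.47) and 6.04% (4.18 to 8.65). Because distance to RUNX1 comes from the list that defined the classes, no test was made.

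Counted by gene, 1867 of 20033 coding genes had a PTBP1-only peak at the start site, a background of 9.32%, and 3497 had a shared peak, a background of 17.5%. Both kinds of peak occurred at 83 genes, and 283 of the 1622 peaks reached more than 1 coding start. The genes assigned to PTBP1-only peaks were shorter than those of the other classes, with a median length of 20699 bases against 28119 for shared, 45148 for RUNX1-only and 27471 for all coding genes. The gene lists that follow were chosen with results of these data known, so they are described by counts beside those backgrounds, with no test. A peak that reached several starts was counted for each gene, also where those genes stood in different lists.

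Oxidative phosphorylation, ribosomal protein and translation initiation factor genes held PTBP1-only peaks at more than the background share of 9.32%, and shared peaks at more than theirs. Of 80 oxidative phosphorylation subunit genes, 21 (26.2%) had one and 18 (22.5%) had a shared peak. The highest were NDUFA6 of complex I at a fold enrichment of 30.2, COX8A of complex IV at 27.3, and ATP5F1D and ATP5ME of the ATP synthase at 22.7 and 20.9. Of 86 cytosolic ribosomal protein genes 23 (26.7%) had one, led by RPL27, RPL23A and RPS2 at 25.6, and 28 (32.6%) had a shared peak. Of 77 mitochondrial ribosomal protein genes 13 (16.9%) had one, led by MRPL49 at 26.7 and MRPL55 at 23.3, and 17 (22.1%) had a shared peak. Of 56 translation initiation factor genes 14 (25%) had one, led by EIF4A3 at 25.6, while 22 (39.3%) had a shared peak. Among coding genes with any PTBP1 peak at the start, 35.4% had a PTBP1-only peak. This share was 53.8% of the 39 oxidative phosphorylation genes with a PTBP1 peak, 45.1% of 51 cytosolic and 43.3% of 30 mitochondrial ribosomal protein genes, and 38.9% of 36 initiation factor genes.

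Several other housekeeping groups were above the background for PTBP1-only and for shared peaks. Mediator, RNA polymerase II and general factor genes had PTBP1-only peaks at 18 of 85 (21.2%), the same number as shared peaks, and MED1 stood at 18.6. Proteasome genes had them at 8 of 39 (20.5%), with PSMA7 at 16.9 and PSMB5 at 14.5. DEAD and DEAH box helicase genes had them at 11 of 54 (20.4%), with DHX8 at 29.1, and DNA replication genes at 8 of 42 (19.0%), with GINS4 at 21.5 and PCNA at 18.6. Genes of the cilium and centrosome had 9 of 61 (14.8%), with CEP76 at 20.9. The SLC25 carriers had 7 of 49 (14.3%), with SLC25A16 at 19.8 after SLC25A42. Shared peaks were at 25.6% of proteasome, 27.8% of helicase, 33.3% of DNA replication, 24.6% of cilium and centrosome and 22.4% of SLC25 genes. Of the genes with any PTBP1 peak, the PTBP1-only share was 50% for the Mediator and polymerase list, 44.4% for proteasome and 42.3% for helicase genes. It was near the 35.4% of all coding genes for SLC25 (38.9%), cilium and centrosome (37.5%) and DNA replication genes (36.4%).

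Zinc finger, vesicle traffic, chaperone, ubiquitin pathway and aminoacyl-tRNA synthetase genes stood near the background for PTBP1-only peaks. Zinc finger (ZNF) genes had PTBP1-only peaks at 53 of 508 (10.4%), with ZNF473 at 22.7 and ZNF556 at 20.9. Vesicle traffic genes had 20 of 193 (10.4%), chaperone genes 7 of 68 (10.3%) with DNAJB4 at 19.2, and ubiquitin pathway genes 15 of 149 (10.1%) with UBE2J2 at 20.9. Aminoacyl-tRNA synthetase genes had 3 of 37 (8.11%), namely FARSB, IARS1 and EPRS1, against 12 (32.4%) with a shared peak.

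Splicing factor and glycolysis genes carried shared peaks and few PTBP1-only peaks. Of 41 hnRNP, SR and PTB genes, whose proteins regulate splicing alongside PTBP1, 2 (4.88%) had a PTBP1-only peak, HNRNPM at 10.5 and HNRNPH2 at 9.88, while 23 (56.1%) had a shared peak. Of 27 glycolysis genes, 0 had a PTBP1-only peak and 11 (40.7%) had a shared peak. Histone genes had 1 of 91 (1.10%), H2BC18 at 12.2, and 14 (15.4%) with a shared peak.

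The lists of lineage genes were short, and their counts stand beside the 9.32% of all coding genes without a test. Of 26 hematopoietic transcription factor genes, 1 (3.85%) had a PTBP1-only peak, IRF8, a factor of monocyte and dendritic cell development, at a fold enrichment of 10.5. Of 20 annotated entries for 18 myeloid surface and granule genes, 2 had one, close to the background, ELANE, the neutrophil elastase gene, and IL3RA, an interleukin-3 receptor subunit gene, both at 11.6. At ELANE the PTBP1-only summit lay 1450 bases inside the gene, 971 bases from a RUNX1 peak, and a shared peak also reached the start site. The G1 cell cycle genes had 4 of 25 (16%), CCND3 at 11.6, CCNE1 and E2F8 at 10.5 and E2F4 at 7.56. Outside the blood lineage, TUBB3 at 12.8 and GRIN1 at 10.5 were 2 of 20 neuronal genes (10%), and OR4M1 at 20.9 was 1 of 400 olfactory receptor genes (0.25%). Shared peaks were at 6 (23.1%) of the transcription factor, 5 (25%) of the myeloid, 5 (20%) of the G1, 1 (5%) of the neuronal and 0 of the olfactory receptor genes. The share of all coding genes with a shared peak was 17.5%.

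**Figure D4:**
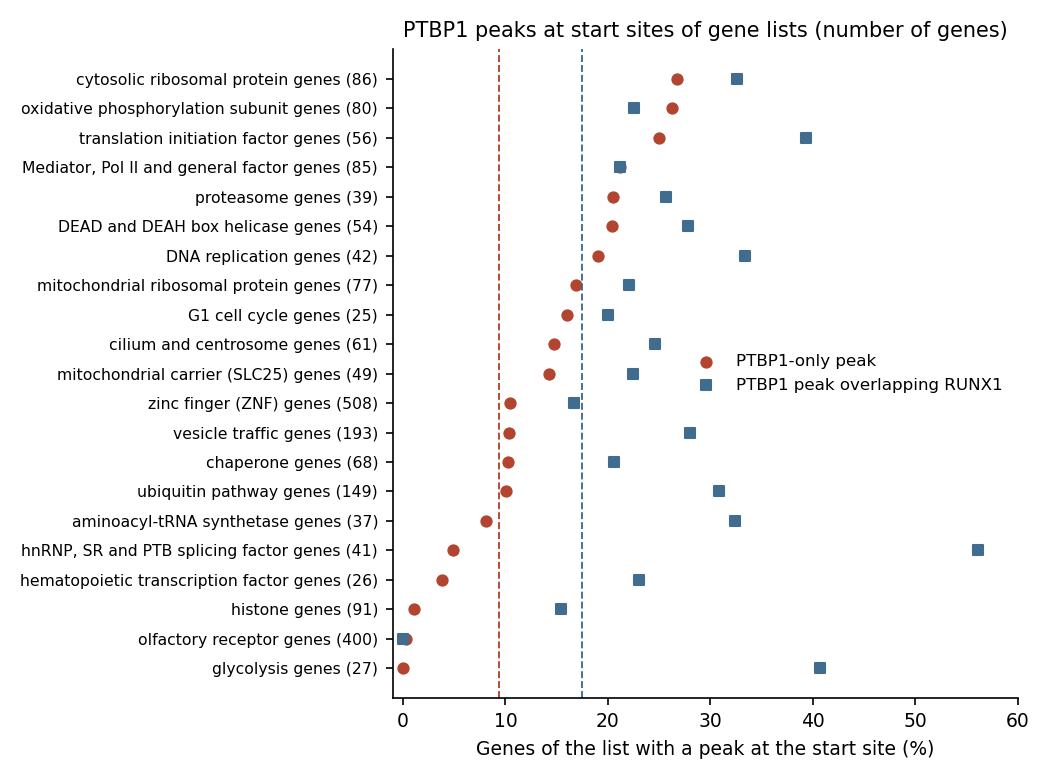
Percentage of the genes of each list with a PTBP1-only peak (circles) or a shared peak (squares) at the start site (x axis), for lists of at least 25 genes with the number of genes in brackets. Dashed lines mark the shares over all coding genes, 9.32% and 17.5%, and glycolysis and splicing factor genes combine low circles with high squares.

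The study singled out 7 genes, namely RUNX1, PTBP1, PTBP2 and the metabolic or regulatory genes HK2, PKM, SLC2A1 and ID1. Of these, 1 had a PTBP1-only peak at its start site, beside 9.32% of all coding genes. The gene was ID1, an inhibitor of DNA binding that dimerises with E proteins. Its summit had 18 fragments and lay 151 bases upstream of the start site, at a fold enrichment equal to the median of 11.05. The nearest RUNX1 peak in the list was 274530 bases away, and the window held none of the motifs searched. RUNX1 signal at ID1 below the calling threshold was not analysed here.

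PTBP1-only start sites were unevenly spread over the chromosomes. The share of coding genes with one was highest on chromosomes 17 (16.4%), 16 (15.6%), 19 (15.1%), 22 (13.4%) and 9 (13.3%) and lowest among the chromosomes with any on 13 (3.41%), X (3.49%) and 21 (4.09%). Shared peaks were also frequent on chromosomes 17 (23.8%) and 19 (23.04%) and rare on X (5.59%). On chromosomes 14 (25.5%), 21 (21.4%) and 13 (16.1%) they were frequent relative to PTBP1-only peaks. PTBP1-only peaks made up 45.6% of the PTBP1 peaks at coding start sites on chromosome 16 but 18.4% on chromosome 21. PTBP1-only peaks lay in 1 Mb windows holding at least 50 PTBP1 peaks in 14.1% (12.4 to 15.8) of cases against 8.23% (7.28 to 9.29) of shared peaks, and 62 of these 228 peaks were on chromosome 16. The part of such windows in the chromosome pattern was not tested.

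**Figure D5:**
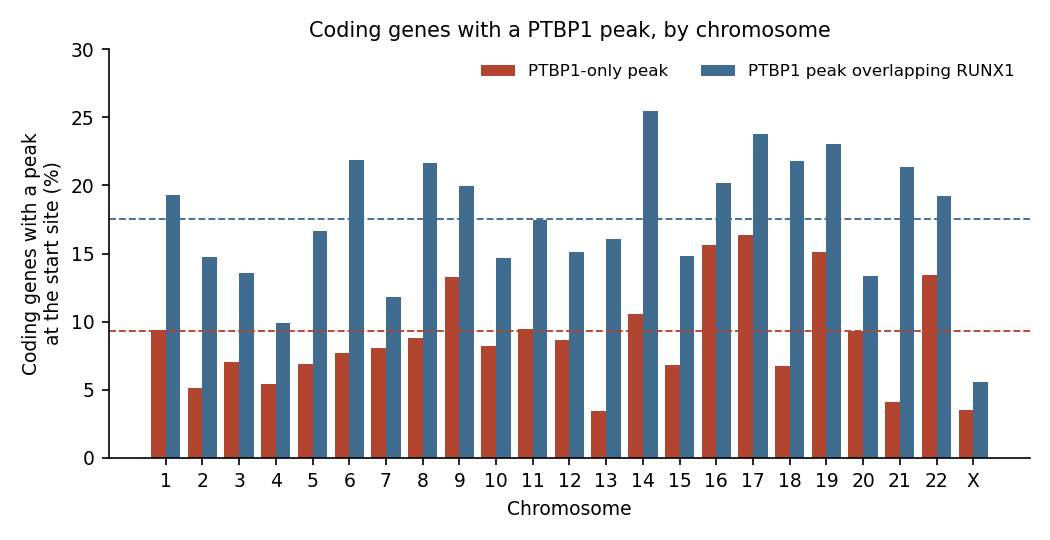
Percentage of coding genes (y axis) with a PTBP1-only peak or a shared peak at the start site on each chromosome (x axis). Dashed lines mark the shares over all coding genes, 9.32% and 17.5%. PTBP1-only bars are tallest on chromosomes 17, 16 and 19, and on chromosome 21 the shared bar reaches 21.4% beside 4.09%.

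A raised local background touched a small part of the PTBP1-only sites. The background was 0.720 fragments at most peaks and above 1.5 times that value at 107 PTBP1-only peaks (6.60%, 5.49 to 7.91) and at 4.60% (3.89 to 5.43) of shared peaks. The lowest fold enrichment, 1.83 at CNOT3, came from 206 fragments over a background of 112, and PPP2R5C had 150 fragments over 59.3 for a fold enrichment of 2.50. The widest PTBP1-only peak, 14510 bases at TSPOAP1, also had a raised background, of 11.9. Without such peaks the differences in divergent start sites and CpG-rich windows were -10.76 and -10.995 points.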

How the data were processed

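PTBP1 and RUNX1 chromatin binding in MOLM-13 cells was analysed from the 2 deposited peak lists, 1 a target, taken as lists of the CUT&Tag libraries. Bowtie2 was used by the authors for alignment to hg38. Alignments of low mapping quality were discarded, which leaves duplicated sequence out, reads were deduplicated and MACS3 peak calling used a q-value threshold of 1e-07. Whether replicates were pooled and which control was used is not given in the sources used here. The deposited fold enrichment is a ratio of summit pileup to background, the deposited -log10 p-values and q-values are those of the authors' peak caller, and the deposited score is 10 times the -log10 q-value as a whole number. Summit fragments and background were solved from the fold and the -log10 p-value (largest difference 0.00134). They stand in for depth, since library totals were not analysed here.

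Start sites were the 5′ ends of 20033 coding genes of GENCODE version 44 on hg38, and exons those of the canonical transcript. Each peak was assigned to its nearest coding start. Shares of peaks were compared with two-sided Fisher's exact tests and Benjamini-Hochberg adjustment over 5 features, 13 motifs and 2 comparisons with RUNX1-only peaks, at a threshold of 0.05. Adjacent peaks can depend on each other and each list is single, so a p-value here says nothing of the spread between cultures. The regions, gene lists and tests were chosen with earlier results of these data known.

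Named were the 20 sites of highest fold enrichment (POU2F1 and MTA2, the last of these, tied with NDUFA4L2 and RFX2 and came first in the list), the 5 highest with a RUNX motif, sites at genes the study names, sites beside the 2 thresholds and at most 4 genes of each list by fold enrichment. CNOT3, PPP2R5C and TSPOAP1 were named after their values were seen. Sequences were printed only where the window touched no annotated exon, and not for every such window. Alternatives covered the q-value, the overlap and start site rules, annotation, peak strength, dense windows, window length, GC content and, chosen after seeing the data, raised background. Searches and tests were tested on simulated data. Tests ran in scipy 1.17.1 under Python 3.11.15, tables in pandas 2.3.3 and numpy 2.4.6, and plots in matplotlib 3.10.9.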

Additional observations from a re-analysis of the deposited data

How the results depend on the processing

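No paired analysis was possible because the peak lists carry no replicate values. The differences in CpG-rich windows and divergent start sites and the RUNX motif difference from RUNX1-only sites kept their direction and passed the exact test under each alternative run for them. GC limits and window length were not varied for the first 2, nor peak strength and summit distance for the last. For summits downstream of the start site, the difference was 7.69 points with canonical transcript starts and 0.208 points with shared summits at most 200 bases apart, against -1.13 points. Among windows of 60 to 70% GC, where fewer sites were tested, the differences missed the threshold for the RUNX motif against shared sites (-1.69 points) and for pyrimidine runs against shared (-3.29 points) and RUNX1-only sites (-5.53 points). Pyrimidine runs against shared sites also missed it within the interquartile range of fold enrichment (-2.21 points). Of 13 promoter motifs, 2 passed, and this fell to 0 within that range and with the start site inside the peak, and to 1 with sites at least 1000 bases from RUNX1, outside dense windows and at 60 to 70% GC. The number of PTBP1-only sites was 1077 with the start site inside the peak.

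Motifs that had not passed the test changed sign as follows, in points, and the cause was not tested. With windows of 100 bases either side, AP-1 was 0.226, ETS 0.0611, NRF1 -0.131, TATA box -0.419 and YY1 0.264. At 60 to 70% GC, C/EBP was -0.219, the cAMP response element -0.438, TATA box -0.0939 and YY1 0.720. With canonical starts, C/EBP was -0.0629 and TATA box -0.179. Without raised background, C/EBP was -0.178 and TATA box -0.122. With the start site inside the peak, C/EBP was -0.0364 and ZBTB33 0.328. Outside dense windows, E-box was -0.124, TATA box -0.0130, YY1 0.0545 and ZBTB33 0.0587. Within the interquartile range, TATA box was -0.822 and YY1 0.139. At least 1000 bases from RUNX1, TATA box was -0.0619, YY1 0.0332 and ZBTB33 0.0428. At a -log10 q-value of at least 10, YY1 was 0.0136 and ZBTB33 0.0939, and with close shared summits YY1 was 0.0480. The lowest PTBP1 summit held 11 fragments and the lowest RUNX1-only summit 8, over most common backgrounds of 0.72 and 0.33. Weaker binding is below what these lists can show.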
